A study of Homo sapiens with 10 samples.

Results

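Transfer RNA (tRNA) genes are short genes transcribed by RNA polymerase III (Pol III), and the peaks of RNA polymerase II (Pol II) and of a histone mark around them were examined. The members are tRNA genes of the RefSeq annotation on chromosomes 1 to 22 and X that have no end of a protein-coding gene within 1 kb. Of 429 tRNA genes placed on these chromosomes, 374 met this rule and 55 were left out for a coding gene end. The 374 members are 70 to 108 bp long, lie on 22 chromosomes and cover 22 amino acid classes and 48 anticodons. Merging members within 2 kb of each other gave 290 loci, of which 237 hold a single gene, and the largest locus holds 5.

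The series used CUT&Tag, in which an antibody directs the transposase Tn5 to cut and tag the DNA near its target. The cells were hTERT-RPE1, a line of human retinal pigment epithelium made immortal by telomerase, with a wild-type genotype and no treatment given in the labels. The targets were Pol II phosphorylated on serine 5 (Ser5) of its C-terminal repeats, with 6 libraries, and histone H3 monomethylated on lysine 4 (H3K4me1), with 4 libraries. For each target the authors deposited 2 peak lists, R1 and R2, each merging 3 Pol II or 2 H3K4me1 libraries. As this is 1 cell line without a second condition, the comparisons are between the targets and between tRNA loci, and p-values measure the spread between loci only. Of 12 genes known from retinal pigment epithelium, chosen after the data were seen, 3 had Pol II at a gene end in both lists. These were KRT8, KRT18 and PMEL, and the share over all coding genes was 39.6%. H3K4me1 was at 6 of the 12, beside 64.3% of all coding genes. The defining visual cycle genes RPE65 and LRAT were among the 7 with no Pol II peak in either list.

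Cells use tRNAs to read codons and deliver amino acids to the ribosome, and each anticodon is served by several gene copies. The promoter of a tRNA gene lies inside the gene as the A box and the B box, which the factor TFIIIC binds. TFIIIC recruits TFIIIB, which brings Pol III to the start, and a run of T bases ends transcription. Ser5 phosphorylation marks Pol II early in transcription, and H3K4me1 is known from enhancers and from the flanks of promoters. Pol II has been described near active Pol III genes in other human cells. A symbol such as TRE-TTC2-1 gives the amino acid by its letter code, the anticodon, a number shared by genes with the same mature tRNA, and the copy. TRX stands for the initiator methionine tRNA and TRU for selenocysteine tRNA.

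The genes themselves show what the members are made of. Sequences were read from RefSeq gene-start windows of GRCh38.p14, in which 8 members lie whole because a neighbouring non-coding gene starts close by. They are printed 5′ to 3′ on the strand of the tRNA, with the anticodon and the B box core GTTCNA in capitals. The core was also used to find the strand, so its presence is no result.

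TRN-GTT4-1: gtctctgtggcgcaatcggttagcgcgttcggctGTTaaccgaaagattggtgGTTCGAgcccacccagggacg
TRN-GTT6-1: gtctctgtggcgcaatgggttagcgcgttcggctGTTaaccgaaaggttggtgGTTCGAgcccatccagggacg
TRH-GTG1-3: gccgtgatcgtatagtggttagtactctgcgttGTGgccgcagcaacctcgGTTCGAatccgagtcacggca
TRT-TGT6-1: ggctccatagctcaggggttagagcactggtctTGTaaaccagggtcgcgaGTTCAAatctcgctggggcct
TRI-TAT2-2: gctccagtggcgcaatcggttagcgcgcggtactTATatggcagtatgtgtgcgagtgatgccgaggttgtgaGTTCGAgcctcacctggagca
TRI-AAT8-1: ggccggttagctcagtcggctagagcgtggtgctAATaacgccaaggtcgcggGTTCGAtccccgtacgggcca
TRA-AGC2-2: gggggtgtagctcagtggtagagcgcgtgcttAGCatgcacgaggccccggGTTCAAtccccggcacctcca
TRL-AAG2-2: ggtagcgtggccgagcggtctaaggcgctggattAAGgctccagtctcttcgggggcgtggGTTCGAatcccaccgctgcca

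These genes differed in their peaks. TRI-TAT2-2, an isoleucine tRNA gene at chr6:27020346-27020439 (hg38, plus strand), had Pol II peaks of 3.85-fold in R1 and 6.90-fold in R2 and H3K4me1 peaks of 7.17-fold and 7.36-fold. TRH-GTG1-3, a histidine tRNA gene at chr1:148281365-148281436 on the plus strand, had a Pol II peak in R2 alone, at 2.98-fold. TRA-AGC2-2 (chr6:28863685-28863756, minus strand) and TRL-AAG2-2 (chr6:28943622-28943703, minus strand) had H3K4me1 in both lists and no Pol II peak. TRI-AAT8-1 (chr6:27668583-27668656, plus strand) had H3K4me1 in R1 alone, and TRT-TGT6-1 (chr5:181191687-181191758, minus strand) had no peak of either target.

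The 2 asparagine tRNA genes shown are near copies with different peaks. TRN-GTT4-1 (chr1:16889677-16889750, plus strand) and TRN-GTT6-1 (chr1:143735920-143735993, minus strand) are identical at 95.9% of 74 bases and differ by C17G, A47G and C65T, with TRN-GTT4-1 given first and positions counted from 1 at its 5′ end. TRN-GTT4-1 had H3K4me1 at 8.31-fold in R1 and 6.46-fold in R2 and no Pol II peak. TRN-GTT6-1 had no peak of either target in any list. C17G lies in the 5′ part of the gene, where the A box is, and none of the 3 lies in the anticodon or the capitalised B box core.

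A run of 4 T bases, TTTT, began within 30 bases after 6 of the 8 genes, and 12.2% of all 35116 gene-start windows of 300 bases hold it in their first 30 bases on the gene's strand. The TATA motif TATAAA was in 1 of the 8 windows and in 11.5% of all windows, on either strand. A match describes letters and is not a measured site.

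Pol II peaks of both lists lay within 1 kb of 93 of the 374 members, or 24.9% (exact Clopper-Pearson 95% interval 20.6 to 29.6%). H3K4me1 was more frequent, at 213 members or 57.0% (51.8 to 62.0%). A gene is counted as bearing a target when a peak of each of the 2 lists overlaps the gene or the 1 kb to either side. Under the same rule, applied at a gene end, Pol II was found at 6.01% and H3K4me1 at 18.3% of 34186 other non-coding genes with no coding end within 1 kb. For non-coding genes of at most 300 bp, which are near tRNA genes in size, the shares were 5.04% and 13.3% of 7407. At 19821 protein-coding genes they were 39.6% and 64.3%. tRNA pseudogenes, which resemble tRNA genes in sequence and number 103, had Pol II in both lists at 0% (3 counts of 103 would be 2.91%) and H3K4me1 at 9.71%. The members' shares thus lay between those of other non-coding genes and those of coding genes for both targets.

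Members found in a single list had weaker peaks. Pol II was in R1 at 111 members and in R2 at 110, and 35 members had it in a single list. Those 35 had a median best -log10 q of 2.54, against 11.8 for the 93 members with both lists, where q is the adjusted p of the authors' peak caller. The best value comes from both lists for the 93 and from a single list for the 35. A peak found in both lists is also likely to be strong, so the rule favours this order. H3K4me1 was in 223 members in each list, and 20 members had it in a single list. No peak of either target in any list was found at 126 members.

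Pol II and H3K4me1 fell at the same tRNA loci. At the level of loci, 60 of 290 bore both targets, 4 Pol II alone, 105 H3K4me1 alone and 121 neither. H3K4me1 was present at 93.8% of the 64 loci with Pol II and at 46.5% of the other loci. The odds ratio was 17.3 (two-sided Fisher's exact test, p = 5.79e-13). The test treats loci as independent, but loci with neither target include runs of neighbours with similar copies. In the chromosome 7 cluster, 0 of 18 loci had Pol II and 1 had H3K4me1. The p-value can therefore be too small, and the part of such runs and of read mapping in the odds ratio was not tested. The same overlap was not computed over other genes, so it is not shown to be particular to tRNA loci. The reverse did not hold to the same degree, since 105 of 165 loci with H3K4me1 did not have Pol II in both lists. The share of loci with Pol II, 22.1%, was 34.8 points below the share with H3K4me1, 56.9% (two-sided exact McNemar test, p = 1.78e-26). The H3K4me1 lists hold 123666 and 124465 peaks and the Pol II lists 49351 and 47180, so the lists differ in length as well.

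**Figure D1:**
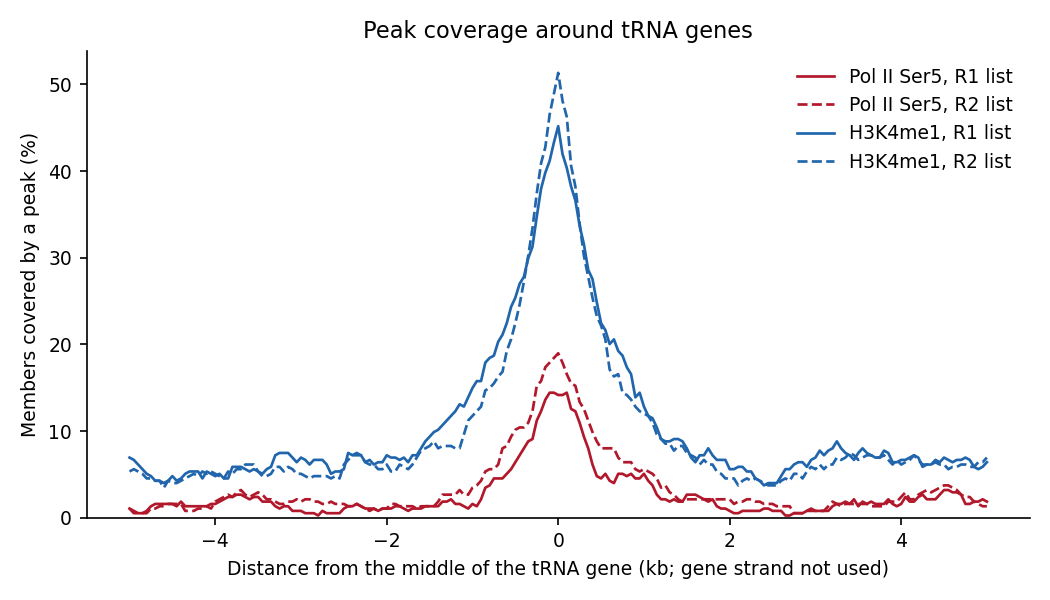
Share of the 374 tRNA genes covered by a peak at each distance from the gene's middle, by list. The x axis is distance in kb and the y axis percent of members. H3K4me1 is highest at the gene's middle, at 45.2% (R1) and 51.3% (R2) of members, as is Pol II in R2 (19.0%), while Pol II in R1 is level within 100 bp of the middle, with its maximum of 14.4% at 100 bp.

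Peak coverage was highest at or within 100 bp of the gene's middle for both targets. Peaks of both lists covered the middle of the gene at 43.0% of members for H3K4me1 and at 11.0% for Pol II. At 250 bp to either side, averaged over the sides, coverage was 27.8% and 9.36%. It was 8.69% and 2.81% at 1 kb and 4.28% and 0.535% at 2 kb. At members with Pol II, H3K4me1 peaks covered the gene's middle at 67.7%, and at those with no Pol II peak in either list at 31.7%. No dip of H3K4me1 over the gene itself was seen in the plot of peak coverage, although the peaks' median width of about 1 kb limits what can be resolved.

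The summits, the highest points of the peaks, lay near the genes. For Pol II the median distance from the gene to the nearest summit was 203 bp in R1 and 211 bp in R2. For H3K4me1 it was 145 bp and 82 bp. The summit lay inside the gene for 15 and 14 of 93 members with Pol II, and for 42 and 53 of 213 with H3K4me1. The summit was thus outside the transcribed stretch at most members with Pol II. It lay closer to the tRNA gene than to the end of any annotated gene other than tRNA genes at 87 members in R1 and 85 in R2, but the member rule, which removed coding ends within 1 kb, favours this outcome. Where neighbouring tRNA genes share a peak, the summit can lie nearer to the neighbour.

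**Figure D2:**
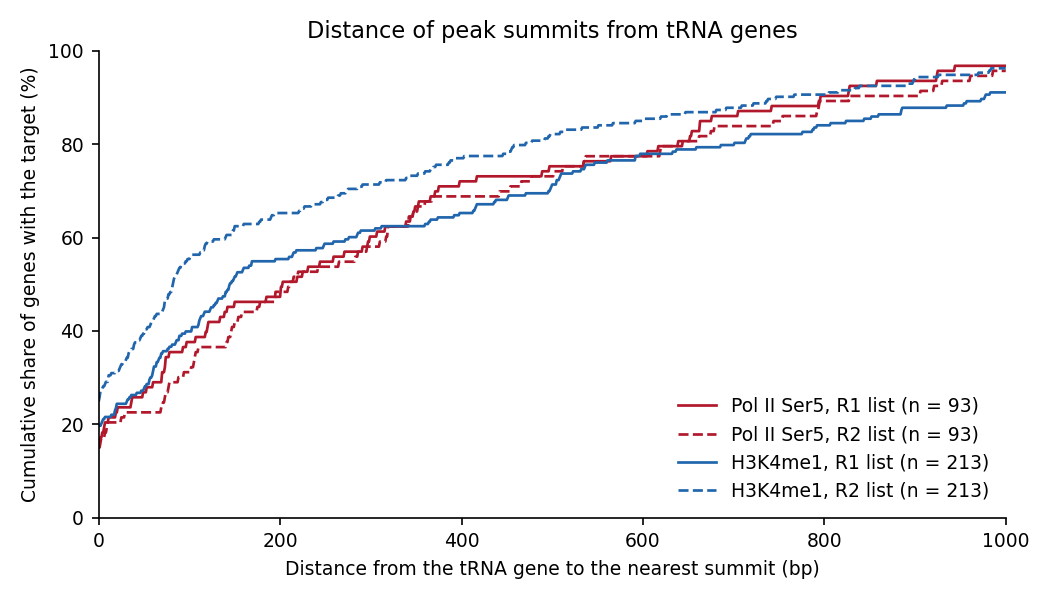
Cumulative share of tRNA genes whose nearest summit lies within a given distance. The x axis is distance in bp (0 means inside the gene), the y axis percent of the 93 genes with Pol II or 213 with H3K4me1, and each line is 1 list. The 2 Pol II lines run close together, and the H3K4me1 R2 line lies above the R1 line over most distances.

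Whether Pol II or H3K4me1 summits were nearer could not be decided. The Pol II summit was the nearer at 22 of 57 loci with both targets and unequal distances, or 38.6% (two-sided exact sign test, p = 0.111). With the R1 lists alone the share was 55.4% (exact sign test, p = 0.457) and with the R2 lists alone 34.4% (p = 0.0169), so the direction depended on the list.

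Enrichment at members was moderate. The deposited fold enrichment of the strongest Pol II peak had a median of 6.24 in R1 (3.04 to 11.5) and 5.53 in R2 (2.28 to 10.7). Over all Pol II peaks the medians were 5.13 and 4.47. For H3K4me1 the medians were 4.96 (2.06 to 11.1) and 5.31 (2.58 to 11.5), beside 4.78 and 4.89 over all peaks. The strongest peak at members with both lists is set beside all peaks, which favours higher values at members. Neighbouring genes share peaks, since the 93 members with Pol II had 66 different strongest peaks in each list. Peaks of R1 and R2 overlapped each other at 88 of these 93 members, and their summits were within 100 bp at 51.

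**Figure D3:**
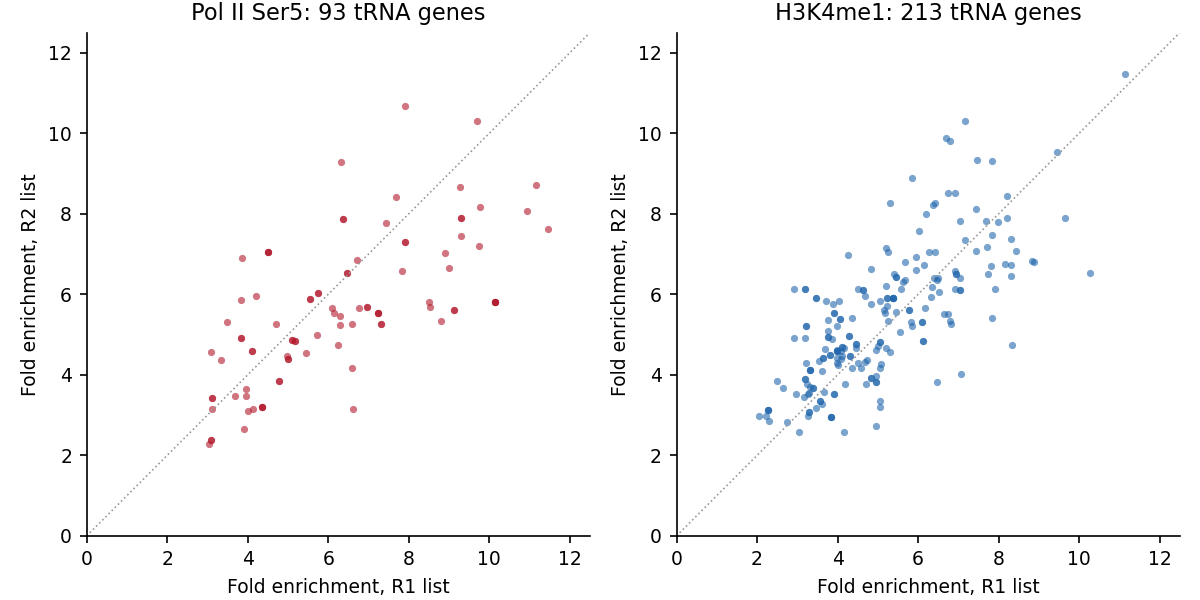
Deposited fold enrichment of the strongest peak at each tRNA gene in the R1 list (x axis) and the R2 list (y axis), for 93 genes with Pol II (left) and 213 with H3K4me1 (right). Each point is 1 gene, genes that share a peak coincide, and the dotted line marks equal values. Pol II was higher in R1 at 62 of 93 genes.

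Across the members the lists ranked genes alike, with a Spearman correlation of fold of 0.692 for Pol II over 93 genes and 0.741 for H3K4me1 over 213. The genes share peaks and libraries, so these values are descriptions. Over the 60 loci with both targets, the strength of Pol II and of H3K4me1 (percentile of -log10 q) had a Spearman correlation of 0.29, a description as well. Members with both targets had a median H3K4me1 fold of 5.23 in R1 and 5.39 in R2. The 100 members with H3K4me1 and no Pol II peak in either list had 4.72 and 4.99.

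The strongest Pol II peaks, by -log10 q, lay at glutamate, alanine, aspartate, lysine, serine, threonine and glutamine tRNA genes. TRE-TTC2-1 (chr13:44917927-44917998), a glutamate tRNA gene, had Pol II at 11.5-fold in R1 and 7.61-fold in R2. Its nearest coding gene end was 21251 bp away, and the summits lay 371 and 317 bp from the gene. Of the other glutamate genes, TRE-TTC4-1 (chr1:16535279-16535350) had 9.74-fold and 7.21-fold with summits 70 and 69 bp away. TRE-TTC3-1 (chr1:16872583-16872654) had 9.77-fold and 8.17-fold with summits at 120 and 106 bp. All 3 have the TTC anticodon and also had H3K4me1 in both lists.

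Lysine and glutamine genes were also among the 10 strongest. TRK-CTT1-2 (chr15:78860562-78860634) had Pol II at 10.9-fold in R1 and 8.07-fold in R2, with summits 316 and 319 bp away. TRQ-TTG1-1 (chr17:49192528-49192599) had 8.996-fold and 6.67-fold, with the R1 summit inside the gene. Both genes lie above the members' median fold in each list and had H3K4me1 in both lists.

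Some of the strongest peaks were shared by a pair of genes. TRA-TGC4-1 (chr12:124939966-124940037) and TRD-GTC2-10 (chr12:124939647-124939718) shared Pol II peaks of 7.90-fold in R1 and 7.29-fold in R2 and had no H3K4me1 peak. TRS-GCT4-3 and TRT-AGT1-1 on chromosome 17 shared peaks of 6.96-fold and 5.67-fold. Their summits were 925 and 930 bp from TRS-GCT4-3 and 639 and 644 bp from TRT-AGT1-1, and a coding gene end lay 1398 and 1112 bp away. Pol II at this pair and at that coding gene end cannot be told apart at this spacing.

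Other amino acid classes were led by genes with clear peaks in both lists. TRN-GTT2-3 (chr10:22229509-22229582), an asparagine gene, had 9.69-fold in R1 and 10.3-fold in R2, with both summits 107 bp from the gene. TRP-AGG2-6, a proline gene on chromosome 14, had 9.29-fold and 7.90-fold. TRI-AAT5-2, an isoleucine gene on chromosome 6, had 9.26-fold and 8.67-fold, with summits 924 and 921 bp away. TRN-GTT2-3 and TRI-AAT5-2 thus had similar folds in R1 and differed in where the summit lay.

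Leucine TRL-CAG1-7 had Pol II at 7.69-fold in R1 and 8.41-fold in R2, and valine TRV-AAC1-1 at 8.51-fold and 5.81-fold. A coding gene end lay 1094 bp from TRV-AAC1-1, and its nearest Pol II summit lay 669 bp away as the mean of the lists. Arginine TRR-TCT3-2, on chromosome 11, had 10.1-fold and 5.80-fold. Histidine TRH-GTG1-1 had 7.31-fold and 5.26-fold, phenylalanine TRF-GAA2-1 had 6.28-fold and 5.25-fold, and tryptophan TRW-CCA4-1 had 5.16-fold and 4.84-fold. In this group the R1 value was the higher for all but TRL-CAG1-7.

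The highest folds, as opposed to the lowest q, lay partly elsewhere, and the next 3 genes were picked after their values were seen. TRS-AGA3-1 (chr6:27532208-27532289), a serine gene, had Pol II at 11.2-fold in R1 and 8.73-fold in R2 and H3K4me1 at 11.1-fold and 11.5-fold. Its nearest summits, as the mean of the lists, lay 807.5 bp away for Pol II and 733 bp for H3K4me1. TRD-GTC2-8 (chr12:96036021-96036092), an aspartate gene, had Pol II at 7.91-fold and 10.7-fold with summits 663 and 662 bp away. TRI-TAT2-1 (chr2:42810536-42810628) had 6.31-fold and 9.29-fold, with summits 353 and 347 bp away. It shares its mature tRNA with TRI-TAT2-2, whose sequence and peaks are given above, and both copies had both targets in both lists.

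Peaks at tRNA genes were wider at the median than the peaks of their list. The median width of the strongest Pol II peak was 500 bp in R1 and 719 bp in R2, beside 333 and 459 bp over all Pol II peaks. For H3K4me1 it was 1039 and 966 bp, beside 764 and 699 bp. The strongest peak in the window of a member with both lists is set beside all peaks here. A wide peak meets a window more readily, so the comparison favours wider peaks at members. A Pol II peak overlapped the tRNA gene itself at 60 of 93 members in R1 and 72 in R2, and an H3K4me1 peak at 175 and 193 of 213.

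The count of genes with Pol II is given by amino acid class, beside 24.9% over all members. Threonine tRNA genes had Pol II at 10 of 19 members (28.9 to 75.6%) and proline genes at 8 of 18 (21.5 to 69.2%). Glutamate genes had it at 5 of 12, arginine at 7 of 18, aspartate at 5 of 13 and glutamine at 6 of 17. Leucine genes had it at 9 of 30, serine at 6 of 21, lysine at 7 of 26, isoleucine at 5 of 20 and valine at 6 of 26. The classes overlap widely in their intervals, and members of a class share clusters, so no test was made between them.

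The classes with no Pol II in both lists were cysteine (0 of 26, upper bound 13.2%), elongator methionine (0 of 11, 28.5%), tyrosine (0 of 9, 33.6%) and selenocysteine (0 of 2). The best values among them came from a single list. TRC-GCA2-4, a cysteine gene on chromosome 17, had a Pol II peak of 7.08-fold in R1 alone, with its summit 45 bp away. TRY-GTA1-1, a tyrosine gene, had 5.08-fold in R2 alone, and TRM-CAT1-1, an elongator methionine gene, 4.38-fold in R2 alone. Cysteine genes were also low in H3K4me1, at 2 of 26, whereas tyrosine genes had it at 5 of 9 and methionine genes at 5 of 11. Most cysteine genes lie in 1 cluster of chromosome 7, and the part of similar copies and read mapping in these low counts was not tested.

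H3K4me1 was at more genes than Pol II in all 22 classes, and over all members the shares were 57.0% and 24.9%. Phenylalanine genes had Pol II at 2 of 9 and H3K4me1 at 7, serine genes had H3K4me1 at 16 of 21, and histidine genes had H3K4me1 at 6 of 7 with Pol II at 3. Alanine genes, the most numerous class, had Pol II at 5 of 34 and H3K4me1 at 16. Glycine genes had Pol II at 3 of 24 and H3K4me1 at 12, and asparagine genes Pol II at 3 of 19 and H3K4me1 at 11. The H3K4me1 shares of alanine (47.1%) and glycine (50%) lay below that of all members, and that of asparagine (57.9%) was close to it.

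**Figure D4:**
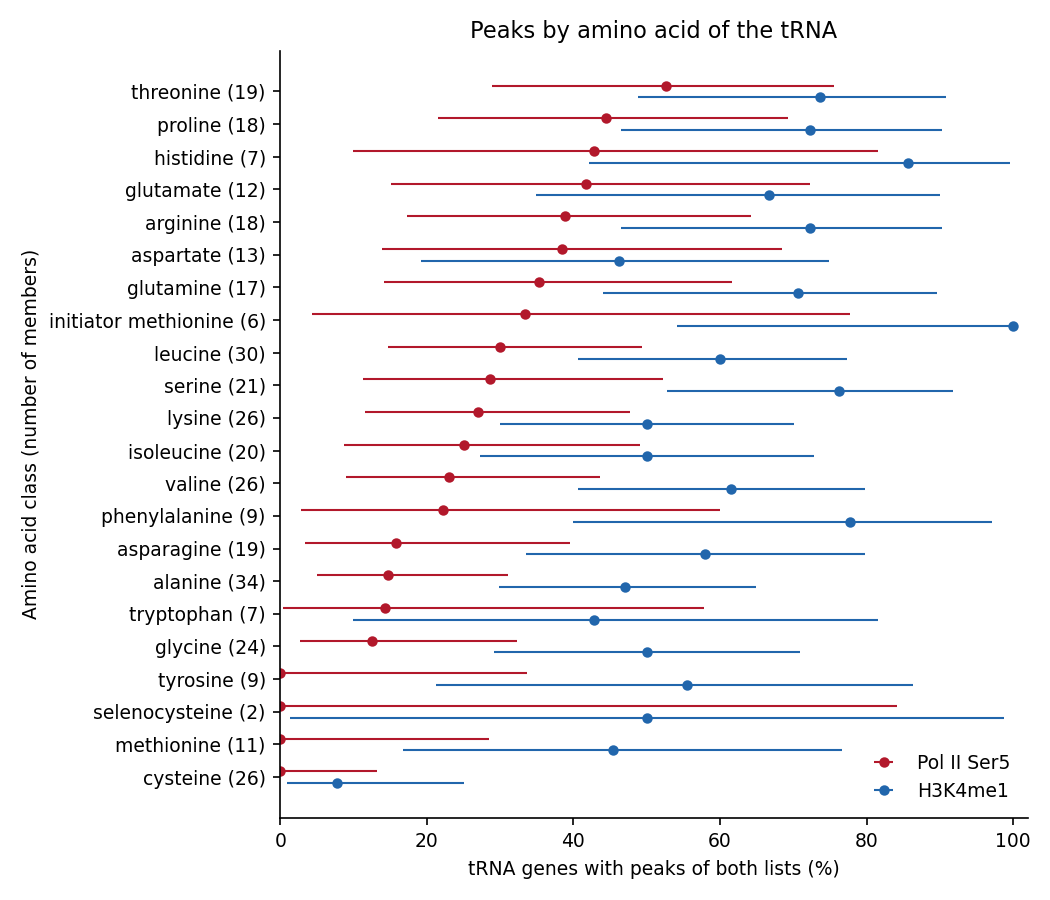
Share of tRNA genes with peaks of both lists, by amino acid class, for Pol II Ser5 and H3K4me1. The x axis is percent of genes with the exact Clopper-Pearson 95% interval as the bar, and the number of members stands beside each class. H3K4me1 lies to the right of Pol II in all 22 classes.

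Counts by anticodon are given for a few anticodons picked after their values were seen, beside 24.9% over all members. Their intervals are wide and overlap within each amino acid, as with 24.5 to 91.5% for threonine AGT and 0.505 to 71.6% for threonine CGT. Some genes share peaks, and no test was made between anticodons. Among threonine genes, AGT had Pol II at 5 of 8, TGT at 4 of 6 and CGT at 1 of 5. Among leucine genes, CAA had it at 4 of 7 and AAG at 0 of 8. Among glutamine genes, TTG had it at 4 of 6 and CTG at 2 of 11. Alanine AGC, the anticodon class with the second most genes, had it at 2 of 23, and valine CAC at 1 of 12.

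The initiator methionine and selenocysteine genes were followed one by one. Initiator tRNA starts every cytosolic protein, and all 6 of its member genes had H3K4me1 in both lists. Pol II was in both lists at TRX-CAT1-7 on chromosome 6, with 6.36-fold in R1 and 7.88-fold in R2 and summits 4 and 2 bp away. It was also in both at TRX-CAT1-8 on chromosome 17, with 3.96-fold and 3.65-fold. TRX-CAT1-7 shares its Pol II peaks with the glycine gene TRG-GCC2-3.

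The remaining initiator members had little Pol II. The initiator gene TRX-CAT1-2, left out for a coding end at 992 bp, had it at 8.21-fold in R1 and 8.04-fold in R2. TRX-CAT1-4 had a Pol II peak in R2 alone, at 3.02-fold, and TRX-CAT1-3, TRX-CAT1-5 and TRX-CAT1-6 had none in either list. Their H3K4me1 folds in R1 ran from 2.23 at TRX-CAT1-3 to 6.94 at TRX-CAT1-6, and in R2 from 2.99 to 6.50 for the same genes. Selenocysteine tRNA inserts the selenium amino acid at recoded stop codons. TRU-TCA1-1 had H3K4me1 at 4.19-fold and 3.78-fold, TRU-TCA2-1 had it in R2 alone at 7.64-fold, and neither had a Pol II peak.

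Pol II without any H3K4me1 peak was rare, with 6 members on 2 chromosomes. Besides the chromosome 12 pair described above, these were 4 genes of the chromosome 5 cluster. TRK-CTT2-3 (chr5:181221979-181222051) had Pol II at 6.09-fold in R1 and 5.65-fold in R2. TRA-TGC3-1 and TRK-CTT2-2 shared peaks of 3.83-fold and 4.91-fold. TRV-AAC1-4 had 3.91-fold and 2.65-fold. A coding gene end lay 1230 to 4939 bp from these 4 genes.

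H3K4me1 without any Pol II peak was found at 100 members, and its strongest cases were mainly alanine genes of chromosome 6. TRA-TGC5-1 had H3K4me1 at 7.84-fold in R1 and 9.32-fold in R2, and TRA-AGC1-1 at 7.99-fold and 7.81-fold, each with both summits inside the gene. TRA-AGC3-1 had 9.44-fold and 9.54-fold with summits 286 bp away. On chromosome 6, TRQ-TTG2-1 had 5.94-fold and 6.94-fold, and on chromosome 1, TRN-GTT2-7 had 8.84-fold and 6.82-fold. The coding gene ends nearest to TRA-TGC5-1 and TRA-AGC1-1 were 85696 and 106967 bp away, and TRN-GTT2-7 had one at 2061 bp.

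tRNA genes are clustered in the genome, and 243 members lie in 7 clusters of at least 10 genes with gaps of at most 500 kb. The largest, at chr6:26299677-28989083, holds 141 genes with alanine as the commonest amino acid (27 genes). Pol II was in both lists at 28 of its genes and H3K4me1 at 92. By percentile of -log10 q, its highest member was TRI-AAT5-2, given above, and its lowest with Pol II was TRA-AGC5-1, at 3.95-fold in R1 and 3.47-fold in R2.

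The chromosome 17 cluster (chr17:8138881-8227064) stood at the other end, with Pol II at 9 of 11 genes (48.2 to 97.7%) and H3K4me1 at 9. Its Pol II folds were low apart from the TRS-GCT4-3 and TRT-AGT1-1 pair. TRT-AGT1-2, TRS-AGA2-6 and TRI-AAT4-1 shared peaks of 4.36-fold in R1 and 3.21-fold in R2, and TRG-TCC3-1 had the lowest folds, 3.04-fold and 2.28-fold. The tryptophan gene TRW-CCA1-1 had no peak of either target. These 11 genes make up 4 loci, so the count rests on few separate places. A coding gene end lay 1398 and 1112 bp from TRS-GCT4-3 and TRT-AGT1-1 and within 5 kb of TRG-TCC3-1. The part of coding gene ends in this cluster's share was not tested.

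The chromosome 7 cluster (chr7:149310190-149707740) has 19 genes, 18 of them for cysteine. Pol II was in both lists at 0 of 19 (upper bound 17.6%) and H3K4me1 at 1. The serine gene TRS-AGA5-1 had a Pol II peak in R1 alone at 6.22-fold, and TRC-GCA1-1 had one in R2 alone at 4.96-fold with the summit inside the gene. TRC-GCA1-1 was also the gene with H3K4me1, at 3.98-fold and 4.29-fold.

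In the chromosome 14 cluster Pol II was at 4 of 12 genes and H3K4me1 at 8, and TRT-TGT4-1 had the lowest Pol II by -log10 q, 3.68-fold in R1 and 3.47-fold in R2. In the chromosome 16 cluster 1 of 13 genes had Pol II, TRR-CCG1-3 at 6.60-fold and 3.15-fold, and 9 had H3K4me1. In the chromosome 5 cluster 4 of 16 genes had Pol II and 5 had H3K4me1, and these were different genes.

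**Figure D5:**
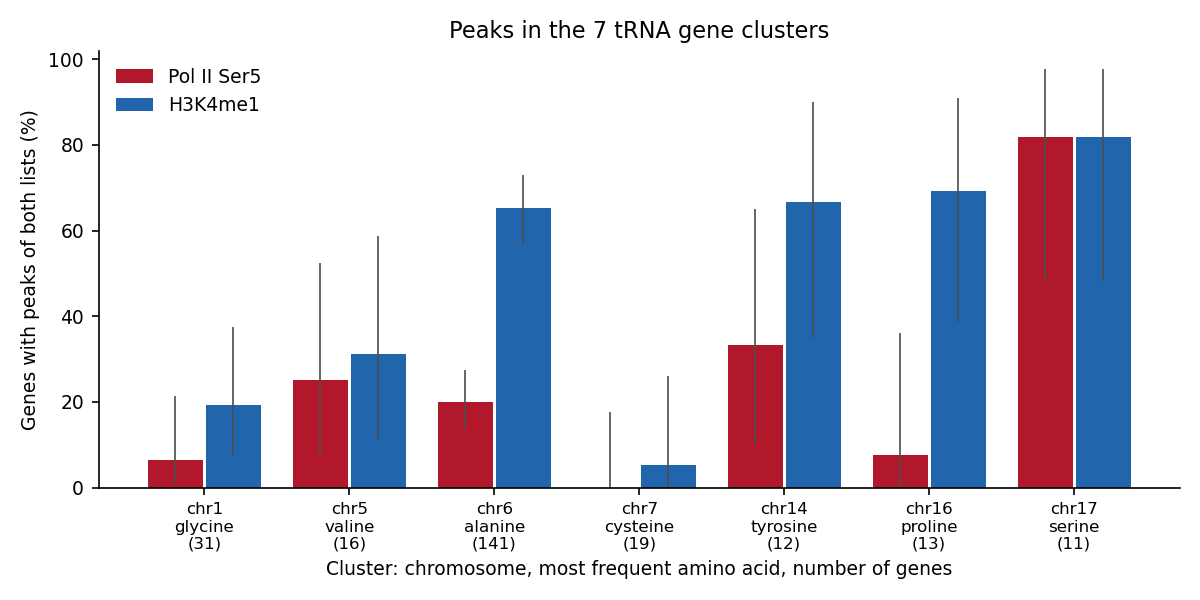
Share of genes with peaks of both lists in each of the 7 tRNA gene clusters, for Pol II Ser5 and H3K4me1. The x axis names the chromosome, the most frequent amino acid and the number of genes, bars start at 0, and lines are exact Clopper-Pearson 95% intervals over genes. The chromosome 17 cluster has Pol II at 9 of 11 genes and the chromosome 7 cluster at 0 of 19.

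The chromosome 1 cluster (chr1:161399700-161612029) contains a repeated array. Pol II was in both lists at 2 of its 31 genes and H3K4me1 at 6. TRL-CAA6-1 had Pol II at 7.44-fold in R1 and 7.76-fold in R2, and TRV-CAC1-1 had 6.72-fold and 6.86-fold. Between them, 4 copies of a unit with glutamate, glycine, aspartate and leucine genes follow each other at steps of 7380, 7411 and 7380 bp. A further locus of 4 genes, at chr1:161440171-161443374, lies just before these copies and was not counted in the array. This array was singled out after its values were seen.

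None of the 19 genes in the 4 units had H3K4me1 in any list, and 13 had no Pol II peak. A Pol II peak of 3.62-fold in R1 lay at TRE-CTC1-3, TRG-TCC2-3 and TRD-GTC2-3, with its summit 162, 125 and 783 bp from them. A Pol II peak of 3.72-fold in R2 lay 2 units further on, at TRE-CTC1-5, TRG-TCC2-5 and TRD-GTC2-5, with its summit 163, 124 and 782 bp from them. The lists thus placed a peak at the same point of the unit in different copies. The assignment of reads that match several copies is not stated by the labels or the processing notes, and its part in the low counts of this array was not tested.

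Chromosomes 6 and 1, which hold 150 and 82 members, were compared with the other chromosomes over loci. Pol II was at 21 of 124 loci of chromosome 6 (16.9%) and 11 of 57 of chromosome 1 (19.3%), against 32 of 109 elsewhere (29.4%). Neither difference passed (two-sided Fisher's exact test, Benjamini-Hochberg adjusted over 4 tests, p = 0.114 and 0.387). H3K4me1 was at 59.7% and 59.6% of loci, against 52.3% elsewhere (Fisher's exact test, adjusted p = 0.387 and 0.413). The Pol II difference of chromosome 6, 12.4 points lower, passed when each gene was counted (14.5 points lower, exact test, adjusted p = 0.0217) and with the R1 lists alone (15.5 points lower, p = 0.0448). It also passed, at 20.2 points lower, when tRNA genes with a coding end within 1 kb were allowed (exact test, adjusted p = 0.00166). It shrank to a difference of -4.88 points without members that have a coding end within 5 kb (exact test, adjusted p = 0.721), and to -1.67 points with members merged within 10 kb (adjusted p = 0.857).

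Among the other chromosomes, Pol II was in both lists at 15 of 23 members on chromosome 17, 8 of 12 on chromosome 11 and 5 of 8 on chromosome 12. It was at 4 of 23 on chromosome 16 and 0 of 21 on chromosome 7. The clusters of chromosomes 17, 16 and 7 hold 11, 13 and 19 of these members. Chromosomes 11 and 12 hold none of the 7 clusters, and the 8 genes with Pol II on chromosome 11 make up 4 loci. No test was made between single chromosomes of this group.

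Coding gene ends lay near many tRNA genes with Pol II. Pol II was at 25 of 51 members with a coding gene end between 1 and 5 kb away (49.0%) and at 68 of 323 without one (21.1%), and H3K4me1 at 36 and 177. Of the 55 tRNA genes left out for a coding end within 1 kb, 40 had Pol II and 48 had H3K4me1. Just outside the rule, TRX-CAT1-2 (992 bp from a coding end) had Pol II at 8.21-fold in R1 and 8.04-fold in R2. Just inside it, TRL-CAA4-1 (1004 bp) had 5.76-fold and 6.02-fold. The part of coding promoters in the members' peaks was not tested.

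Loci with more genes had Pol II more often. It was at 42 of 237 loci of 1 gene (17.7%), 13 of 36 loci of 2 genes (36.1%) and 9 of 17 loci of 3 or more (52.9%). A locus with more genes is also a wider target for the 1 kb window.

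Some of the other genes that Pol III transcribes also bore Pol II. Of 37 such genes, 13 had Pol II in both lists and 24 H3K4me1 within 1 kb of a gene end, beside 9.83% and 23.2% of 38169 other non-coding genes when coding ends are allowed. Pol II was at 9 of the 31 with no coding end within 1 kb and at 4 of the other 6. RPPH1, the RNA of ribonuclease P, which trims the 5′ end of tRNAs, had the highest folds of the list, 16.1 in R1 and 12.2 in R2, but a coding gene end lies 224 bp from it. RMRP, the RNA of the related ribonuclease MRP, had 5.94-fold and 5.08-fold, with a coding gene end at 273 bp and the R1 summit at 1447 bp.

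The signal recognition particle RNA genes RN7SL1 and RN7SL2 had Pol II at 6.16-fold and 7.84-fold in R1 and 5.79-fold and 8.22-fold in R2. RN7SK, whose RNA restrains the elongation factor P-TEFb, had 8.08-fold and 5.82-fold, with a coding gene end at 336 bp. The vault RNA genes VTRNA1-1, VTRNA1-2 and VTRNA1-3 had 9.21-fold, 9.66-fold and 6.31-fold in R1 and 8.64-fold, 7.64-fold and 7.31-fold in R2. All of these have promoter elements upstream of the gene or partly so.

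Of the spliceosomal genes, RNU6-2 had Pol II at 11.2-fold in R1 and 7.06-fold in R2, with a coding gene end at 399 bp, and RNU6ATAC had 9.29-fold and 5.08-fold. The Y RNA genes RNY5 and RNY3 had 7.91-fold and 6.06-fold in R1 and 4.69-fold and 4.98-fold in R2. Among the 5S ribosomal RNA genes, which lie in a tandem array of near-identical copies, RNA5S12 alone had Pol II in both lists, at 3.54-fold and 3.68-fold, and the part of read mapping in that count was not tested. Of the list, 17 genes had no Pol II peak in either list.

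The genes that encode the tRNA machinery are transcribed by Pol II and mostly bore it at an end. Pol II was at 14 of 18 genes for Pol III subunits, 15 of 19 for its transcription factors and 20 of 24 for tRNA processing and export, beside 39.6% of all coding genes. H3K4me1 was at 15, 17 and 24 of them, beside 64.3%. POLR3GL and POLR3D, subunits of Pol III, had 7.34-fold and 7.41-fold in R1 and 6.29-fold and 6.34-fold in R2. GTF3C1, the largest subunit of TFIIIC, had 7.98-fold and 7.64-fold, and TBP, the TATA-binding protein within TFIIIB, 7.63-fold and 6.15-fold. The R2 summit at TBP lay 1181 bp from the nearest end of the gene.

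SNAPC5, of the complex that starts U6 RNA transcription, had 8.13-fold and 6.24-fold, and ZNF143, which activates such genes, 8.64-fold and 8.38-fold. FTSJ1, a tRNA methyltransferase of the anticodon loop, had 16.5-fold and 11.6-fold, and TSEN34, of the tRNA splicing endonuclease, 9.71-fold and 6.84-fold. The FTSJ1 summits lay 1178 and 1177 bp from the nearest end of the gene, beyond the 1 kb that its peaks reach into. POLR3K and SNAPC4 had no Pol II peak in either list.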

How the data were processed

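CUT&Tag peak lists of hTERT-RPE1 cells were analysed, 2 each for Pol II Ser5 and H3K4me1. Per the submitters' processing notes, BWA, SICER and deepTools were used on hg38. The roles of these tools, the peak threshold, any control and the mapping of repeated reads are not stated there. Column 7 of the deposited lists was read as the fold enrichment (a ratio), column 9 as -log10 q, and the other deposited value, column 10, as the summit offset. Depth is unknown, as no read counts come with the peaks, and intervals cover the counting of genes or loci only. That the lists of a target come from separate cultures is not stated.

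Gene positions are from a RefSeq table of GRCh38.p14, without strand. 679 genes whose rows carry positions of other sequences, 14 of 443 tRNA genes among them, were left out. Members were tRNA genes without a coding end within 1 kb, merged into loci within 2 kb. Fisher's, McNemar and sign tests (scipy 1.17.1, Python 3.11.15, threshold 0.05) run over loci and were tested on simulated data. The members, lists and tests were chosen with earlier results of these data known. Named were the 10 strongest Pol II members by mean percentile of -log10 q, and the best of each amino acid. Also named were up to 5 members with a single target, the initiator and selenocysteine genes, the extremes of each cluster, the Pol III transcripts with Pol II, and up to 4 of each machinery group. Others were chosen after their values were seen. The windows of the strongest members, planned for display, were not used here, and the 8 member genes that lie inside windows of other genes are shown instead.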

Additional observations from a re-analysis of the deposited data

How the results depend on the processing

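Of 109 alternative values for 9 results under 13 settings, 92 kept their direction and side of the threshold or moved little. The odds ratio of Pol II and H3K4me1 at the same loci and the lower share of Pol II did so under every setting run. With the R number as a replicate block (Mantel-Haenszel over single lists) the odds ratio was 13.5, and the block changed no call. The Pol II share of loci was 17.2% with a 250 bp window, 12.8% with peaks above the median -log10 q, 27.7% with coding ends within 1 kb allowed and 31.5% with members merged within 10 kb. The H3K4me1 share was 24.1% with peaks above the median and 64.7% with merging within 10 kb. The Pol II difference of chromosome 6 from other chromosomes was -20.2 points with coding ends allowed, -14.5 with each gene counted, and -10.3 to -15.5 with 1 list of each target left out. It was -4.88 with no coding end within 5 kb and -1.67 with merging within 10 kb. That of chromosome 1 was -19.1 points with coding ends allowed (Fisher's exact test, adjusted p = 0.0178). The H3K4me1 difference of chromosome 6 was -6.44 points with peaks above the median, -0.240 with coding ends allowed and 27.0 with merging within 10 kb (exact test, adjusted p = 0.00454). That of chromosome 1 was -0.870 with coding ends allowed and -4.23 with each gene counted. The share of loci with the nearer Pol II summit was 34.4% without R1 and 55.4% without R2. The cause of these shifts was not tested.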
